A study of Mus musculus with 9 samples.

Results

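Rai14 and 7 protein-coding genes around it on mouse chromosome 15 were examined in lists of chromatin captured with probes against the long noncoding RNA Gm4665 or against LacZ. In chromosome order the 8 genes were Dnajc21, Brix1, Rad1, Ttc23l, Rai14, C1qtnf3, Amacr and Slc45a2, of 21779 protein-coding genes annotated on the chromosomes used. They were selected on the width of a Gm4665 interval, the widest of the list, which lies at Rai14, so the width and fold of that interval are descriptions and were not tested. All deposited intervals that overlapped a gene span, extended by 10 kb on each side, by at least 1 bp were taken. This gave 12 of 38711 Gm4665 intervals and 3 of 9448 LacZ intervals.

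Wild-type mice of the ICR strain, aged 35 days after birth, gave the testicular germ cells, and all 9 samples share this strain, age and tissue. Titles name the captured RNA LncRNA-20 and protocols name Gm4665. That these are the same RNA is inferred, and all that is called Gm4665 here rests on it. There are 3 replicates in each of 3 groups: Gm4665 probes, titled LncRNA-20, LacZ probes as the control, and Input, sonicated chromatin that serves as the denominator. In such a capture, cross-linked chromatin is hybridised with biotinylated probes complementary to an RNA, and the DNA held with it is sequenced. LacZ is a bacterial gene absent from mice, so its probes have no intended target. The labels repeat 1 protocol, naming Gm4665 probes, for every sample, and leave unsaid how many animals stand behind the replicates, so SDs may cover technical spread alone, and how pure the germ cells were. DNA intervals carry no expression markers by which the cell type could be checked.

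RAI14, also called ankycorbin, is an ankyrin-repeat and coiled-coil protein that binds actin filaments. In the testis it is best known from Sertoli cells, where it takes part in the actin bundles of the junctions that anchor spermatids and form the blood-testis barrier. Its neighbours have unrelated roles. RAD1 is a subunit of the RAD9-HUS1-RAD1 clamp, which is loaded at DNA damage and acts in meiotic cells. BRIX1 and DNAJC21 serve ribosome assembly. AMACR is the racemase of branched-chain fatty acids and bile acid precursors, SLC45A2 is a melanosomal transporter needed for pigment, and C1QTNF3 is a secreted protein of the C1q and TNF-related family. TTC23L is a tetratricopeptide repeat protein.

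The stated interest of the series was the regulatory regions of genes, so the starts of the genes are shown first. Promoter windows of 300 bases, 250 before the start and 50 from it on, came from RefSeq (GRCm38.p6, the assembly also known as mm10) for 6 of the 8 genes. These were 9 windows, because several genes have more than 1 start, and none overlapped a Gm4665 or a LacZ interval. Over all 32851 windows of the table, 1.8% overlapped a Gm4665 interval and 0.728% a LacZ interval, so no overlap among 9 is near the background. The sequences below are both Rai14 windows, that of Ttc23l as the gene start nearest to the wide Rai14 interval, and that of Gm4665, the only window among these genes and Gm4665 that lay under an interval. All read from 5′ to 3′ on the minus strand. Capitals mark the first transcribed base and any copy of TATAAA on either strand.
Rai14, chr15:10714049-10714348: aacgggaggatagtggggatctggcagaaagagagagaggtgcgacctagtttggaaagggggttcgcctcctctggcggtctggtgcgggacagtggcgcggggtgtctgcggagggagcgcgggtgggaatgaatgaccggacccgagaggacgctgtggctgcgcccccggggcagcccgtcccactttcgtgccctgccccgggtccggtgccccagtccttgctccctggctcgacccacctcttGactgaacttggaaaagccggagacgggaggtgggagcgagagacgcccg
Rai14, chr15:10713491-10713790: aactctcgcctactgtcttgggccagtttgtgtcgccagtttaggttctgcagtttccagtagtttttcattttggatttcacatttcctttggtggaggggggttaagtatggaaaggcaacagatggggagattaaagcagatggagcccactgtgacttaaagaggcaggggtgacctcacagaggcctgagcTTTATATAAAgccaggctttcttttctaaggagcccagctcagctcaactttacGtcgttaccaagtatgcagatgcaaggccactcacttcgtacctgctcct
Ttc23l, chr15:10558620-10558919: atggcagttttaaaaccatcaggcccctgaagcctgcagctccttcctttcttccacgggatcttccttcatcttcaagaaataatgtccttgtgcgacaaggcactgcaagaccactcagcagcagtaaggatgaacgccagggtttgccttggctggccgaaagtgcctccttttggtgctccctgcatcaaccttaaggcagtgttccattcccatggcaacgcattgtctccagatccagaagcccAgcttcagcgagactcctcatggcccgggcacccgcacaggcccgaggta
Gm4665, chr9:115186052-115186351: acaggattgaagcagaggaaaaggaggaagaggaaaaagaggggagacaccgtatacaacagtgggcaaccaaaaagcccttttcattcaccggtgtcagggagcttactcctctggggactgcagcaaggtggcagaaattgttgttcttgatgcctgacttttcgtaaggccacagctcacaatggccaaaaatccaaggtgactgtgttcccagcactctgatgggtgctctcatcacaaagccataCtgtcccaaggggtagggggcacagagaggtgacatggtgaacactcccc

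The first Rai14 window was rich in G and C, at 67.0%, against a median of 52.7% over all windows. The second held 48.0% and carried TATAAA on each strand in a pair of copies that overlap, the first beginning 54 bases before the start. TATAAA occurred on either strand in 13.6% of all windows, and these letters are a match, not a shown site. From these starts, at 10714098 and 10713540, the nearest Gm4665 interval was 37933 bp and 37375 bp away. The wide interval was 118778 bp and 118220 bp away. Rai14 (gene 75646, 10568971 to 10719267, 150297 bp) is read from high to low coordinates, so its strongest signal lay at the end where transcription stops.

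That interval ran from 10568392 to 10595320, 26929 bp. It began 579 bp outside the annotated Rai14 span and covered the last 26350 bp of the gene, 17.5% of its span, leaving 123.9 kb up to the other gene end. Its summit, at 10590840, was 21869 bp inside the gene and 83.4% of the way from the low to the high edge, 4480 bp short of the latter. The highest fold enrichment over input listed for it was 143 in replicate 1, 126 in replicate 2 and 118 in replicate 3 (mean 129 ± 13.1, SD, n = 3). These were 12.6, 14.8 and 11.4 times the median of the whole list in the same replicates, which ranked it 2, 3 and 4 among all intervals. The deposited coverage at the summit was 424 reads, against a list median of 36. No LacZ interval overlapped it or any other of the 7 widest Gm4665 intervals, so this is not particular to Rai14. The annotation used gives gene spans without exons, so how much of it is exonic was not examined.

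**Figure D1:**
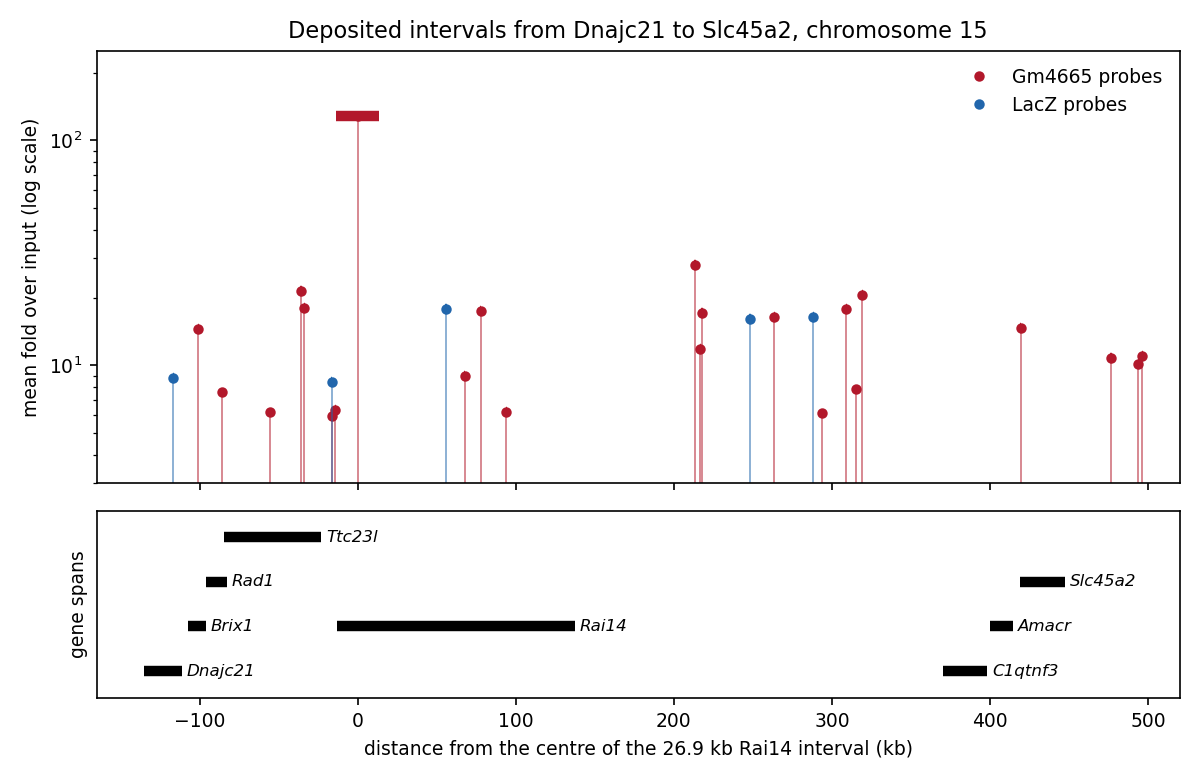
Mean fold over input of the Gm4665 (red) and LacZ (blue) intervals, on a log axis, against distance in kb from the centre of the 26.9 kb Rai14 interval, with the spans of the 8 genes below. The wide interval stands at 129, drawn to its width at the low-coordinate end of Rai14, and every other interval drawn lies below 30.

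The rows behind this interval held a single entry for replicate 1 and several for replicates 2 and 3. The list gives this interval 25 times, each time with the same edges, summit and coverage and the same replicate 1 fold. Replicate 2 had 5 different folds there: 6.33, 6.48, 6.80, 10.8 and 126. Replicate 3 had 4: 4.93, which stood in 10 of the 25 rows, and 6.17, 6.99 and 118, which stood in 5 each. Every replicate 2 fold was paired with every replicate 3 fold. In replicates 2 and 3, then, a single fold of over 100 stood beside others near 5 to 11, and the highest was 11.6 and 16.8 times the next. The rows do not say where within the interval each of these folds lay.

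The same layout held across the list. Among 383 Gm4665 intervals that occurred in more than 1 row, all 383 had a single replicate 1 fold and a single summit, while 209 had several replicate 2 folds and 285 several replicate 3 folds. In 381 of them the number of rows equalled the product of the distinct folds. The Rai14 interval was not among these 381, because its replicate 3 fold of 4.93, in 10 rows, stands for 2 entries. The Rai14 interval, with 25 rows, had the most in the list. The LacZ list showed the same in 124 of 124 repeated intervals for replicate 1. The labels and headers do not state how the replicates were joined. Since every repeated interval had 1 replicate 1 fold and 1 summit, edges and widths are given as listed and read as those of replicate 1. They are not shown to be shared by replicates 2 and 3, and no SD over replicates can be put on them.

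**Figure D2:**
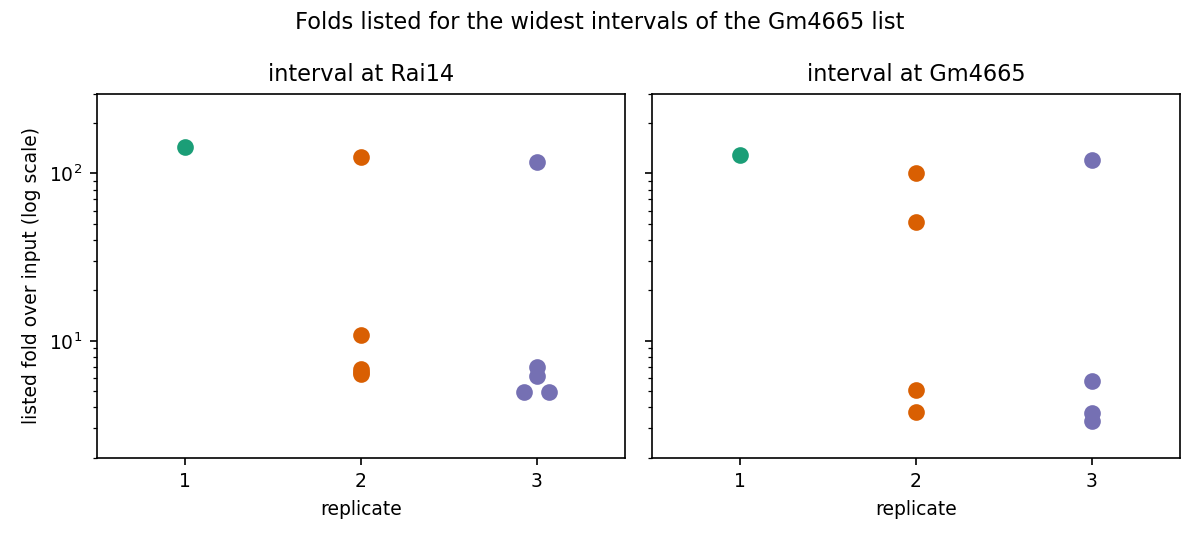
Folds over input listed for the Rai14 interval (left) and the Gm4665 interval (right) in each replicate, on a log axis, with 1 point for each fold and a pair of points for the replicate 3 fold of 4.93, listed in 10 rows at Rai14. Replicate 1 has 1 fold at both loci, while replicates 2 and 3 have a fold above 100 and others down to 4.93 at Rai14 and to 3.32 at Gm4665.

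The gene of the captured RNA had the interval most like it. Likeness was measured as width, and at Gm4665 (gene 100043812, chromosome 9, 115178427 to 115186101) the interval was 26100 bp wide, with 16 rows. It ran from 115165775 to 115191874, past both ends of Gm4665, and also overlapped the span of Osbpl10. There, replicate 1 had a single fold of 129, replicate 2 had 4 folds from 3.74 to 101, and replicate 3 had 4 from 3.32 to 120. Its summit lay 76.9% of the way along, 263 bp inside the end of Gm4665 at which transcription starts. The next 5 widest intervals were much narrower. They measured 6436 bp at Sun5, which encodes a sperm head-to-tail linker, 4358 bp in the GABA receptor gene Gabbr2, 4033 bp in the semaphorin gene Sema3e, 3851 bp outside any gene, nearest to F730016J06Rik, and 3807 bp in Zfand4. The Rai14 interval was 4.18 times as wide as that at Sun5 and 7.07 times as wide as that in Zfand4. The median of the list was 582 bp. In the LacZ list 1 interval was over 10 kb, at 16202 bp on chromosome X.

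**Figure D3:**
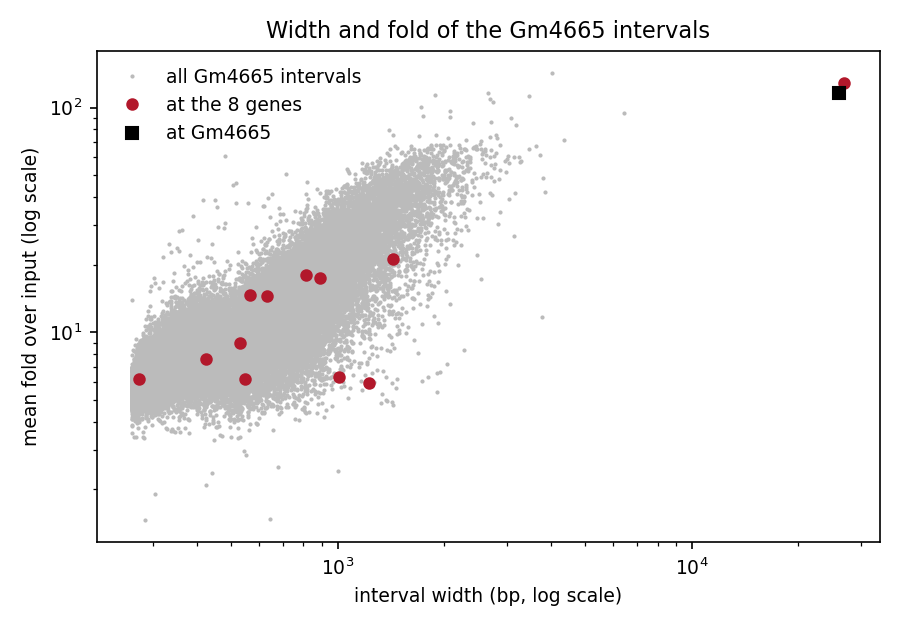
Width in bp against mean fold over input, both on log axes, for all 38711 Gm4665 intervals (grey), the 12 at the 8 genes (red) and that at Gm4665 (black square). The Rai14 interval and the Gm4665 interval stand apart at 26929 and 26100 bp, and 2 red points with widths of 1006 and 1226 bp lie at the lower edge of the cloud.

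Toward Ttc23l, weak intervals were listed close to the wide interval. Whether they belong to its signal was not tested. Separated from the wide interval by 151 bp, an interval from 10567235 to 10568240 had folds of 6.48, 6.33 and 6.17 in replicates 1, 2 and 3 (mean 6.33 ± 0.155, SD, n = 3). It was listed in 2 rows, with replicate 3 folds of 4.52 and 6.17, and this mean and SD rest on keeping the higher. Its replicate 2 fold, 6.33364, was close to but not the same as a fold of 6.33362 listed within the wide interval. The higher replicate 3 fold, 6.17, was the same to 5 decimals as 1 of those listed within the wide interval. Folds fall on a grid, and 1.81% of the list had that replicate 3 fold, so the match alone does not show a single stretch. The next interval, from 10564919 to 10566144 and 2247 bp from the wide interval, had 4.77, 6.42 and 6.58 (mean 5.93 ± 1.00, SD, n = 3). Both lie between the gene spans, within 10 kb of Ttc23l and of Rai14.

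These 2 intervals were wide for their fold. Of the 3348 Gm4665 intervals between 1000 and 1300 bp, a range chosen after the values were seen, the median fold was 24.2. Only 0.179% had a lower mean fold than the interval of 1226 bp and 0.299% a lower one than that of 1006 bp. Coverage at their summits was 13 and 18 reads. The interval of 1226 bp was also the only 1 of the 12 that a LacZ interval overlapped. The share of the whole Gm4665 list that a LacZ interval overlaps is not given here. Overlap or its absence at these genes is therefore a description only. That LacZ interval, from 10565131 to 10565634, had folds of 14.4, 4.09 and 6.88 (mean 8.47 ± 5.35, SD, n = 3), with its highest fold in replicate 1. The part of background capture in the signal between the genes was not tested.

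Inside Ttc23l (gene 75777, 10497223 to 10558775, minus strand), 3 Gm4665 intervals were listed and no LacZ interval. The strongest, from 10545277 to 10546710, had folds of 27.3, 14.1 and 22.5 (mean 21.3 ± 6.69, SD, n = 3), above 85.6% of the list. It lay 21681 bp from the wide interval and was, at 1434 bp, the second widest at the 8 genes. Its neighbour, from 10547615 to 10548425, had 21.5, 9.28 and 23.0 (mean 17.9 ± 7.53, SD, n = 3). The remaining interval, 41694 bp away, was 274 bp wide, with 7.44, 5.44 and 5.76. Folds thus did not fall steadily with distance: they were low next to the wide interval, higher near 20 kb and low again near 40 kb.

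Rad1 and Brix1 start 81 bp apart and are read in opposite directions, and their promoter windows overlap by 180 bases. Each had 1 interval in its span. That in Brix1 (gene 67832, 10474779 to 10485937), from 10480695 to 10481324, had folds of 19.1, 7.37 and 16.9 (mean 14.4 ± 6.22, SD, n = 3) and lay 4613 bp from the Brix1 start. That in Rad1 (gene 19355, 10486018 to 10499063), from 10495921 to 10496345, had 10.1, 5.78 and 6.99 (mean 7.63 ± 2.24, SD, n = 3), above 29.5% of the list. Replicate 2 was the lowest at both. Because the genes stand close, both intervals counted at Brix1 and at Rad1, and the second at Ttc23l as well.

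At Dnajc21 (gene 78244, 10446763 to 10470568), no Gm4665 interval was listed. The interval in Brix1 fell 126 bp outside its window, the nearest miss of all 8 genes. A LacZ interval lay within Dnajc21, from 10464915 to 10465600, with folds of 16.5, 4.03 and 5.77 (mean 8.77 ± 6.77, SD, n = 3), and counted at Brix1 too. Dnajc21 was thus the only 1 of the 8 genes with a LacZ and no Gm4665 interval. The share of all protein-coding genes with this pattern is not given here, so nothing particular to Dnajc21 is read from it.

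On the other side of the wide interval, within Rai14, no Gm4665 interval was listed for the next 53933 bp. Of fixed bins of 50 kb on the autosomes, 46.1% held none. The gap, unlike the bins, starts at the edge of an interval chosen for its width, so that share is no chance level for it. The first interval past it, from 10649254 to 10649784, had folds of 13.0, 4.08 and 9.74 (mean 8.93 ± 4.49, SD, n = 3). The next, from 10659143 to 10660030, had 23.2, 16.5 and 12.7 (mean 17.5 ± 5.30, SD, n = 3), above 78.8% of the list. The last, from 10675620 to 10676165, had 6.51, 5.99 and 6.17. The stretch without Gm4665 intervals held a LacZ interval, from 10636880 to 10638647, with 30.6, 11.7 and 11.3 (mean 17.9 ± 11.01, SD, n = 3). The Gm4665 and LacZ intervals in the body of Rai14 did not overlap. This is a description only, since the share of overlap over the whole list is not given here. The lncRNA gene Gm10389 (10600293 to 10611651), 4972 bp past the wide interval and inside Rai14, held no interval of either list.

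**Figure D4:**
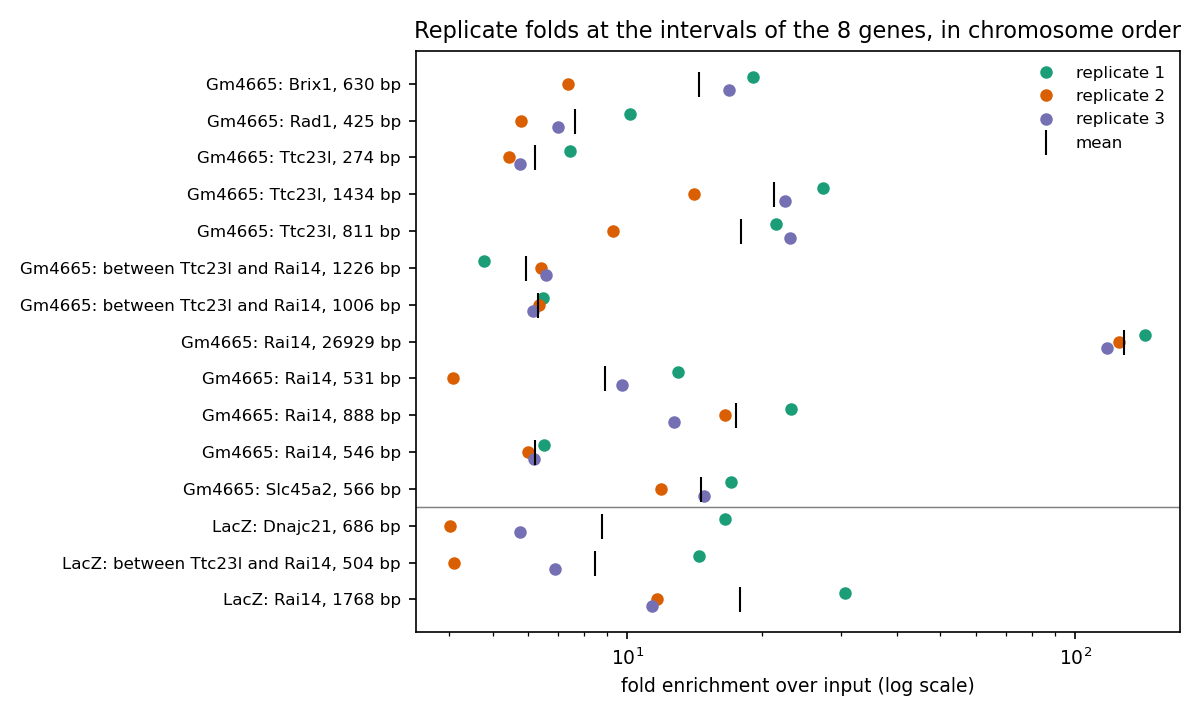
Fold over input in replicates 1, 2 and 3 (coloured points) and their mean (bar), on a log axis, for the 12 Gm4665 intervals and, below the line, the 3 LacZ intervals at the 8 genes. Each is named by the gene span it overlaps, or as lying between Ttc23l and Rai14 where it overlaps none. At the Rai14 interval of 26929 bp the highest folds of the replicates stand between 118 and 143, and at the others none exceeds 31. Replicates 2 and 3 also list lower folds there, down to 4.93, which are not drawn.

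C1qtnf3, Amacr and Slc45a2 lie farther off, and little was listed there. C1qtnf3 (gene 81799, 10952119 to 10980162), 356798 bp from the wide interval, had no interval of either list, and its nearest Gm4665 interval lay 20907 bp from its span. Slc45a2 (gene 22293, 11000721 to 11029233) had 1, from 11001070 to 11001635, with folds of 17.0, 11.9 and 14.8 (mean 14.6 ± 2.58, SD, n = 3). Amacr (gene 17117, 10981756 to 10996624) had none in its span, and the same interval, 4445 bp from it, fell in its window. No LacZ interval was listed at any of these 3 genes. Between Rai14 and C1qtnf3, the lncRNA gene 4930556M19Rik (10714836 to 10790123), whose span overlaps the start end of Rai14, held no interval. The lncRNA genes Gm10389, Gm52214, Gm34315 and Gm52174 and the pseudogenes Gm8174 and Gm29742 held none in their spans either. The exception was the lncRNA gene Gm19276 (10829051 to 10832713), with a LacZ interval and no Gm4665 interval.

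By count, 6 of the 8 genes had a Gm4665 interval in the span with flanks, against 53.1% of all protein-coding genes, and 5 had one in the span itself, against 35%. Among genes with spans in the range of the 7 neighbours, 11159 to 61553 bp, the shares were 56.3% and 38.1%. Both counts lay above these shares. Since Rai14 was chosen for its interval, and 6 of the 12 intervals counted at 2 or more genes, nothing particular to the genes is read from this. With the Gm4665 list reduced to the length of the LacZ list, by fold, 4 intervals at 2 genes remained, Rai14 and Ttc23l. LacZ intervals lay at 4 of the 8 genes, against 22.4% of protein-coding genes, and in the span of 2, against 15.4%. In the length range of the neighbours those shares were 21.1% and 13.3%. The LacZ counts rest on 3 intervals, of which 2 counted at 2 or more genes, and nothing is read from them either. With a fold of at least 5 required in every replicate, 1 LacZ interval at 1 gene was left, that in the body of Rai14.

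Apart from the wide interval, the fold at the 8 genes was ordinary for the list. The 11 other Gm4665 intervals had mean folds of 5.93 to 21.3, with a median of 8.93, against 9.99 for the list, and the wide interval was 6.04 times the strongest of them. Divided by the list median of the same replicate, their median was 1.14, 0.755 and 0.948 in replicates 1, 2 and 3 (mean 0.948 ± 0.192, SD, n = 3). For the 6 that do not touch the Rai14 window, the mean ratio was 1.37. Replicate 1 was the highest in 9 of the 11 and replicate 2 the lowest in 8, the order of the list medians too (11.4, 8.50 and 10.3). LacZ replicate 1 ran high throughout its list, with a median of 23.0 against 8.18 and 10.9, and was the highest at all 3 LacZ intervals. These stood at 0.718, 0.500 and 0.630 of their list medians (mean 0.616 ± 0.110, SD, n = 3). The lists were normalized separately, so these ratios were not tested against each other.

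Intervals lay more densely around the wide interval than on chromosome 15 as a whole. Within 100 kb of its edges, 10 Gm4665 intervals were listed, 50 per Mb, against 15.7 per Mb on the chromosome. The LacZ control was denser there too, with 2 intervals, 10 per Mb, against 3.65 per Mb on the chromosome. The Gm4665 intervals were uneven: 5 lay within 50 kb on the Ttc23l side, none within 50 kb on the Rai14 side, and then 2 and 3 between 50 and 100 kb. Of fixed 50 kb bins on the autosomes, 0.175% held 5 or more. This band, unlike the bins, starts at the edge of an interval chosen for its width, so that share is no chance level for it. The 5 intervals on the Ttc23l side include the weak ones 151 bp and 2247 bp from the wide interval. Together the 5 covered 9.50% of their band, against 1.05% of the chromosome. Density was 26.7 per Mb on both sides from 100 to 250 kb. From 250 to 500 kb it was 20 per Mb on the Ttc23l side and 36 per Mb on the Rai14 side. From 500 to 1000 kb, density was 14 and 16 per Mb on the 2 sides, near that of the chromosome. Beyond the wide interval, the highest mean fold within 1 Mb was 39.5.

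The surroundings of Gm4665 on chromosome 9 differed in count. There, 4 Gm4665 intervals lay within 100 kb of the wide interval, 20 per Mb, against 16.9 per Mb on that chromosome. Each locus is a single place, and the difference between the counts was not tested. LacZ intervals numbered 1 within 100 kb at Gm4665, 5 per Mb, against 4.35 per Mb on chromosome 9. An interval is listed where every replicate had a fold, so a place without an interval may hold signal below the threshold of the caller, whose settings the labels and headers do not state.

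**Figure D5:**
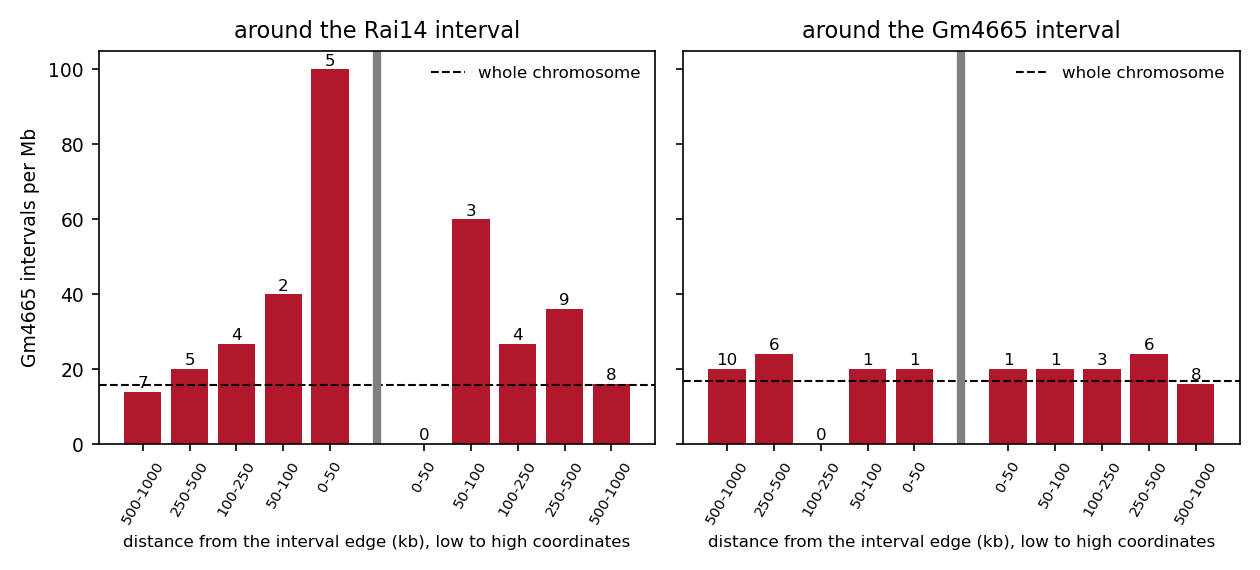
Gm4665 intervals per Mb in bands of distance from the edges of the Rai14 interval (left) and the Gm4665 interval (right), with the count above each bar and the density of the chromosome as a dashed line (15.7 and 16.9 per Mb). At Rai14 the band from 0 to 50 kb holds 5 intervals on the side of Ttc23l and none on the side of Rai14, while at Gm4665 each of these bands holds 1.

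Genes that share a role with Rai14 or its neighbours were looked up in 5 lists, by the same window. Of 34 other actin and adhesion genes of the Sertoli cell junctions, 25 (73.5%) had a Gm4665 interval, against 53.1% of protein-coding genes, and 12 (35.3%) had a LacZ interval, against 22.4%. Their median span was 53.9 kb, against 17.2 kb for all, so they offer longer windows. The strongest interval of each of the 25 had a median mean fold of 16.6, against 13.2 over the 11561 protein-coding genes with an interval. The highest were at Lama3, a laminin chain gene of the anchoring junction (61.6 ± 9.96), Fscn1, which encodes the actin bundler fascin (53.1 ± 12.7), Tjp1, which encodes the tight junction scaffold ZO-1 (42.0 ± 2.49), and Jam3, a junctional adhesion gene (29.0 ± 2.19, SD, n = 3 each). The widest of the strongest intervals in this list was 2173 bp, far under that at Rai14.

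The partners of the other genes are set against the same backgrounds, 53.1% for Gm4665 and 22.4% for LacZ. Of 12 other genes of the RAD1 clamp and the ATR pathway, 3 (25.0%) had a Gm4665 interval and 2 (16.7%) a LacZ interval. These 3 were Clspn, which encodes the checkpoint adaptor claspin (19.3 ± 7.21), Etaa1, an ATR activator (13.3 ± 5.37), and Chek1, the checkpoint kinase (7.82 ± 0.913, SD, n = 3 each). Of 15 ribosome assembly genes, 8 (53.3%) had a Gm4665 interval and 7 (46.7%) a LacZ interval, led in the Gm4665 list by Sbds (15.9 ± 2.15) and Pa2g4 (13.4 ± 1.90, SD, n = 3 each). Of 11 pigment genes, 8 (72.7%) had a Gm4665 interval and 5 (45.5%) a LacZ interval. Mlph, a melanosome transport gene, had 34.4 ± 6.87, and Mitf, the melanocyte transcription factor gene, had 31.5 ± 7.38 (SD, n = 3 each). Of 11 genes of branched-chain oxidation in peroxisomes, 7 (63.6%) had a Gm4665 interval and 3 (27.3%) a LacZ interval, with Scp2, which encodes a sterol carrier protein, at 24.1 ± 2.80 (SD, n = 3). The LacZ shares of the ribosome assembly and pigment lists thus lay farther above their background than the Gm4665 shares did. These lists were not matched on gene length, and the counts are descriptions.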

How the data were processed

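Peak lists for 3 Gm4665 and 3 LacZ replicates were analysed as deposited. The authors called intervals with MACS2 against input, per the file names, on mm10, per the submitters' processing notes. For the aligner, the MACS2 version and its settings: not given in the sources used here. Every deposited row holds an interval, a linear fold ratio over input for each replicate and a pileup, the coverage signal at the summit, per the file headers. The ratio of fold to pileup + 1 came within 0.0005, as a fraction, of its highest value in 47.5% of Gm4665 rows for replicate 1, against 0.00253% for replicates 2 and 3, so coverage was read as that of replicate 1. Read totals were not used here, so depth is known only through that coverage.

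Repeated rows of an interval were merged, keeping each replicate's highest fold. Intervals on chromosomes 1 to 19, X and Y were kept. Gene spans came from RefSeq (GRCm38.p6), without 340 entries starting below 3 Mb on chromosomes other than Y. Coordinates are 1-based. Groups and replicate numbers came from titles. Overlap code was tested on simulated intervals (Python 3.11.15, pandas 2.3.3). The genes and lists were chosen with earlier results of these data known. Named genes were the 8, Gm4665, genes between them or under their intervals, those at the next 5 widest intervals, and up to 4 per list by fold. No test across samples was run: the rule used the readout, and the lists were normalized separately.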

Additional observations from a re-analysis of the deposited data

How the results depend on the processing

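Of 41 alternatives to the counts and folds at the 8 genes, 31 stayed within the limits set for a change (1.5 times for a count, 1 SD over replicates for a fold or ratio). With the Gm4665 list reduced to the length of the LacZ list, 12 intervals became 4 and 6 genes became 2, since fewer intervals enter. LacZ genes went from 4 to 2 without flanks and to 2 with flanks of 2 kb, since less sequence was searched, and with a fold of at least 5 to 1, at 1 interval instead of 3. The mean fold of the wide Rai14 interval, 129, was 51.5 with the lowest fold of each replicate kept and 52.2 with the median of the distinct folds, an alternative chosen after seeing the data. Both follow from the several folds listed for replicates 2 and 3. The ratio to the list median was 1.37 for the 6 Gm4665 intervals away from Rai14 (0.948 for all 11), and for LacZ intervals it was 0.727 as a mean of log2 folds (0.616 as a median). The cause was not tested. Leaving out 1 replicate at a time gave 122 to 134 for the wide interval. It gave ratios of 0.852 to 1.04 for the Gm4665 intervals and of 0.565 to 0.674 for the LacZ intervals. Edges could not be recomputed without a replicate. No paired analysis was possible because no result comes from a test across samples. Coverage of 13 to 18 reads limits the weak intervals between Ttc23l and Rai14.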

Other observations

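The places named here were chosen after their values were seen. Outside the 8 genes, the strongest Gm4665 interval within 1 Mb of the wide interval lay in Agxt2, a mitochondrial aminotransferase gene on the far side of Dnajc21. It ran from 10375318 to 10376558 with folds of 54.2, 37.8 and 26.4 (mean 39.5 ± 14.0, SD, n = 3). An interval outside any annotated gene, from 10794522 to 10795650, had 24.9, 28.6 and 30.7 (mean 28.0 ± 2.96, SD, n = 3). It began past the far end of the lncRNA gene 4930556M19Rik, and replicate 1 was the lowest there. Adamts12, a metalloprotease gene beyond Slc45a2, held 8 Gm4665 intervals in a span of 284 kb, 28.1 per Mb against 15.7 on the chromosome. The span of Rai14 had a similar density, 26.6 per Mb. Adamts12 held no LacZ interval, where the chromosome has 3.65 per Mb. At that rate so short a span would hold few, so nothing is read from their absence. The lncRNA gene Gm19276, between Rai14 and C1qtnf3, held a LacZ interval with a mean fold of 16.1 ± 7.04 (SD, n = 3) and no Gm4665 interval.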
